A study of Mus musculus with 8 samples.

Results

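The 9 genes Igf1, Vegfa, Vegfb, Pdgfa, Pdgfb, Hbegf, Gdf15, Grn and Osm encode growth factors and cytokines that macrophages secrete, and they were taken by gene symbol from the 49315 genes of the count table. All 9 were among the 13051 genes that passed the filter on low counts. RNA was sequenced from bone marrow-derived macrophages (BMDMs) of C57BL/6 mice, grown in 10% serum with 10 ng/ml of M-CSF, the cytokine that drives marrow cells to become macrophages. Cells of both groups received a gapmeR by transfection, that is, an antisense oligonucleotide that directs RNase H to cut its target RNA. Its dose was 25 nM by the labels, while the study's methods state an amount rather than a concentration. The 4 control libraries (replicates 2, 5, 6 and 7) received control gapmeR #1. The 4 knockdown libraries (replicates 9, 11, 13 and 15) received gapmeR against MAARS, a macrophage long noncoding RNA. The comparison asks which RNAs differ in level once MAARS is reduced. How many gapmeR sequences were used against MAARS in these libraries is not given in the labels. The labels do not say whether libraries of a group came from separate mice or cultures, so p-values measure only the spread between these libraries, which may be technical.

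The members act on neighbouring cells by different routes. IGF-1 signals through a receptor tyrosine kinase for growth and survival, and its access is set by binding proteins. VEGF-A is the main angiogenic ligand and is a classic target of hypoxia-inducible factors, whereas VEGF-B is less inducible. PDGF chains A and B pair to form ligands that recruit smooth muscle cells and fibroblasts. HB-EGF is shed from the membrane to activate the EGF receptor family. GDF15 is a stress-induced member of the TGF-beta superfamily, progranulin (Grn) is a secreted and lysosomal glycoprotein, and oncostatin M (Osm) is a cytokine of the IL-6 family. In bulk RNA, a lower level in every cell and fewer cells of the kind that makes a transcript cannot be told apart.

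Total counts ran from 19287279 to 20567123 in the control libraries and from 20839671 to 24541205 in the MAARS gapmeR libraries, so every knockdown library was the deeper. Values are given as CPM, the count of a gene relative to all counts of its library, scaled by TMM, a trimmed-mean correction for library composition, with factors from 0.955 to 1.03. MAARS itself (annotated as Gm14461, chr2:78237547-78302230, plus strand, GRCm38) stood at 12.2, 15.1, 12.98 and 12.2 CPM in control replicates 2, 5, 6 and 7 and at 7.71, 6.41, 7.31 and 5.85 CPM in MAARS gapmeR replicates 9, 11, 13 and 15. The groups did not overlap, and the log2 fold change was -0.95 ± 0.11 (SE) with an adjusted p of 5.8e-05 in edgeR's quasi-likelihood test. All 8 macrophage markers were expressed, at a summed 13836 to 17118 CPM in control libraries and 17011 to 20241 CPM after knockdown. Lyz2 held the largest part of that sum, at 9402 CPM on average in controls and 13170 CPM after knockdown. Of the 8 markers, 5 were called higher and 2 lower, beside 21.3% and 24% of all genes tested. The latter were Cd68 (2162 to 1710 CPM on average) and Fcgr1 (808 to 190 CPM).

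Knockdown of MAARS went with higher Vegfa, Igf1 and Vegfb and with lower Grn and Gdf15. The other 4 members, Pdgfa, Pdgfb, Hbegf and Osm, did not pass the test. A gene was called at a Benjamini-Hochberg adjusted p under 0.05 over all 13051 genes in edgeR's quasi-likelihood test, with 4 libraries per group. Of all genes tested, 21.3% were called higher and 24% lower, against 3 and 2 of the 9 members, so the members' shares lay near the background. The median log2 fold change was 0.17 over the members and 0.008 over all genes. Control and knockdown CPM did not overlap for Igf1 and Vegfa on the higher side and for Grn on the lower side, where 19.3% and 22.8% of all genes did so. With upper-quartile scaling, which moved the median of all genes to 0.07, 60.4% of called genes were higher rather than 47.0%, and the members split into 4 higher and 2 lower, with Pdgfa added.

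**Figure D1:**
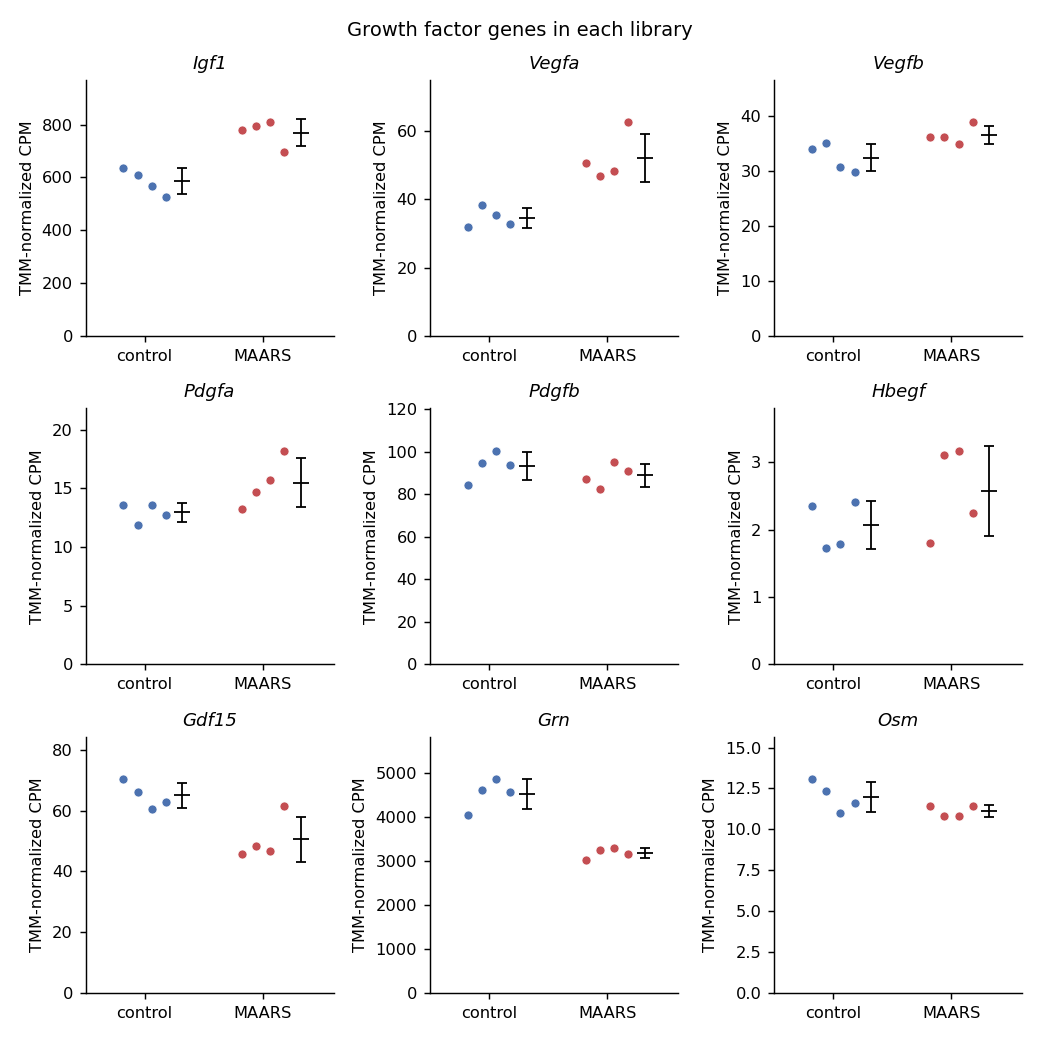
TMM-scaled CPM of the 9 members in each library, 1 panel per gene, with control gapmeR and MAARS gapmeR on the x axis, 1 point per library and a bar at the group mean with its SD (n = 4). The 4 knockdown libraries lie above every control library for Igf1 and Vegfa and below every control library for Grn, and Gdf15 overlaps through 1 library at 61.5 CPM.

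Promoter sequences of the called members are shown first, so that the genes that rose and those that fell can be read side by side. Each window holds 250 bases before and 50 after the annotated start, from RefSeq on GRCm38.p6, 5′ to 3′ on the gene's own strand. Windows were listed for 6 of the 9 members. Capitals mark matches on either strand to any of 7 short motifs. Hypoxia-inducible factors bind a core of ACGTG, and MYC-type factors bind the E-box, whose letters CACGTG contain that core, so an E-box counts for both. The GC box, bound by factors of the Sp family, reads GGGCGG. The element that positions the basal transcription machinery was searched as TATAAA. AP-1, the Fos and Jun dimer, binds a site with the letters TGANTCA. STAT factors bind paired half-sites, searched here as TTCNNNGAA. The last motif was the core of the interferon-stimulated response element, searched under that name. The windows lie at chr10:87860861-87861160 (plus strand) for Igf1, chr17:46032328-46032627 (minus) for Vegfa, chr19:6987602-6987901 (minus) for Vegfb, chr8:70632046-70632345 (minus) for the Gdf15 window with a match, and chr11:102430257-102430556 (plus) for Grn. The Igf1 window and that Gdf15 window lie inside their genes, at downstream starts. The Grn window spans that gene's annotated 5′ end, and the start it is built on lies downstream of that end. The Pdgfa windows, not printed, also lie inside their gene. The Gdf15 window at that gene's annotated 5′ end (chr8:70632407-70632706), without a match, is not printed.
Igf1: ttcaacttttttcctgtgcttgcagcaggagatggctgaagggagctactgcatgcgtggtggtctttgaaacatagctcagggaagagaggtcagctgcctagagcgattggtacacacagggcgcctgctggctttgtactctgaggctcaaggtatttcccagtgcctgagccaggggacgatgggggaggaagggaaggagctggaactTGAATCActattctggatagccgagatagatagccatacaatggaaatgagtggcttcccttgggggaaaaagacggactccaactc
Vegfa: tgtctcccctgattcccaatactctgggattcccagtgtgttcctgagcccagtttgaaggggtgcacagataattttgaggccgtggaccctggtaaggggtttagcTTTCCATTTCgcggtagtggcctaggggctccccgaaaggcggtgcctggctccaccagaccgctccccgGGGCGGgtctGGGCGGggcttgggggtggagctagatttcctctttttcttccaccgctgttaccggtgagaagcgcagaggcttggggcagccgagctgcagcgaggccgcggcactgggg
Vegfb: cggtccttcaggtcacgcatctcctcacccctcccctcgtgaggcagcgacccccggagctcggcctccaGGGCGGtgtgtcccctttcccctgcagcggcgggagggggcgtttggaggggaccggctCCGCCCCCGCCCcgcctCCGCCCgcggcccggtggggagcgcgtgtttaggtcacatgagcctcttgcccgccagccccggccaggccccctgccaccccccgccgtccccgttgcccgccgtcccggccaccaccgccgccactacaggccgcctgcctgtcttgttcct
Gdf15: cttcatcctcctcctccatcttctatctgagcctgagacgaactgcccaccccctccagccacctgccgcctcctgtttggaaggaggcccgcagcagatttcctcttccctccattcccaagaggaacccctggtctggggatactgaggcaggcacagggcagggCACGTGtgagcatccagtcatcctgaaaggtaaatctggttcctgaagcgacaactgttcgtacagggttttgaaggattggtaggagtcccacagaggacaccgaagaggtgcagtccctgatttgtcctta
Grn: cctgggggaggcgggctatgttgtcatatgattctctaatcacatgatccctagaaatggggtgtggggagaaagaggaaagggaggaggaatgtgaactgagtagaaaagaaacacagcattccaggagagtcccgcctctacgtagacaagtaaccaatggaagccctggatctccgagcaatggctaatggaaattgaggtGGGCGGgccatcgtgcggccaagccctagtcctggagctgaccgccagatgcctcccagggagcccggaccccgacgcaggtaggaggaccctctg

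GC boxes were found in the windows of Vegfa, Vegfb, Pdgfa and Grn, with 4 in Vegfb alone, and 35.7% of the 32851 windows of all genes held at least 1. They therefore occurred beside called members of both directions. The ACGTG core, held by 19.6% of all windows, was present in the other Vegfa window, 211 bases before a downstream start. It also lay within the E-box 83 bases before the Gdf15 start shown, which is likewise downstream. The Gdf15 window at the gene's annotated 5′ end held none of the 7 motifs. An AP-1 match lay 37 bases before the Igf1 start shown, also a downstream start, as in 7.81% of windows. An interferon-type match lay 142 bases before the Vegfa start, as in 3.44%. Windows of Vegfb were 75.3% G or C and those of Igf1 52.3%, against a median of 52.7% over all windows. A match describes letters only, and no binding was measured here.

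Levels between genes were compared per kilobase of merged exon length (CPM per kb). Grn was by far the most abundant member, at 1299 ± 99.4 CPM per kb (SD, n = 4) in control macrophages, above 99.8% of the genes tested. Igf1 followed at 59.1 ± 4.91, Gdf15 at 35.1 ± 2.26, Pdgfb at 22.4 ± 1.58 and Vegfb at 20.2 ± 1.54 CPM per kb. Vegfa stood at 8.07 ± 0.676, Osm at 5.28 ± 0.396, Pdgfa at 4.16 ± 0.259 and Hbegf at 0.428 ± 0.0746 CPM per kb. In the control libraries only Pdgfb (20.3 to 24.1) and Vegfb (18.6 to 21.8) overlapped among neighbours in this order.

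After knockdown the order of the highest 3 members was kept, with Grn at 914 ± 34.5, Igf1 at 77.8 ± 5.01 and Gdf15 at 27.3 ± 3.96 CPM per kb. Vegfb at 22.7 ± 1.02 then stood above Pdgfb at 21.4 ± 1.31 CPM per kb, although their ranges still overlapped. Vegfa reached 12.2 ± 1.66 CPM per kb, and Pdgfa at 4.96 ± 0.665 and Osm at 4.90 ± 0.161 CPM per kb had overlapping ranges. Hbegf stayed lowest at 0.534 ± 0.138 CPM per kb. Among all counts assigned to the 9 genes, Grn took 82.0 to 85.5% in control libraries and 74.6 to 76.2% after knockdown, and Igf1 took 9.84 to 12.9% and 16.9 to 19.3%.

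**Figure D2:**
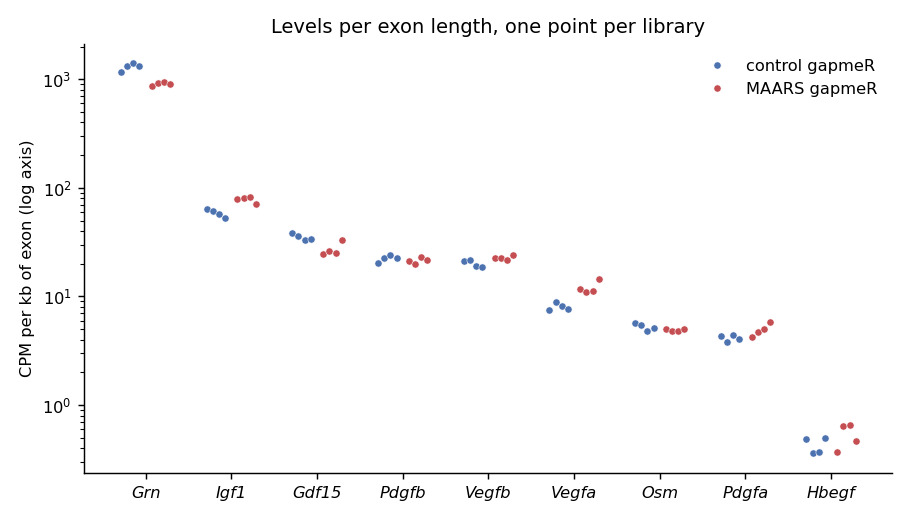
Level of each member as TMM-scaled CPM per kb of exon on a log axis, with 1 point per library in both groups. Grn lies near 1299 in controls, Igf1 and Gdf15 follow, and Hbegf lies under 1 in every library.

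Vegfa had the largest fold change of the 3 members called higher. It was measured at 31.8, 38.3, 35.3 and 32.9 CPM in control replicates 2, 5, 6 and 7, and at 50.7, 46.9, 48.5 and 62.6 CPM in MAARS gapmeR replicates 9, 11, 13 and 15. Every knockdown library lay above every control library, with replicate 15 the highest. The mean went from 34.6 ± 2.90 to 52.1 ± 7.13 CPM (SD, n = 4), a 1.51-fold difference. Its log2 fold change of 0.59 ± 0.093 (SE, 95% interval 0.39 to 0.80) had an adjusted p of 4.0e-04 in edgeR's quasi-likelihood test. An exact two-sided permutation test over the libraries gave 0.0286, the smallest value that 4 against 4 allows. Without MAARS gapmeR replicate 15 the log2 fold change was 0.49. The gene (ENSMUSG00000023951) spans chr17:46016993-46032369 on the minus strand of GRCm38.

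Vegfb, the sister ligand that binds VEGFR-1 but not VEGFR-2, moved less. Its controls were at 33.9, 35.0, 30.7 and 29.9 CPM and its knockdown libraries at 36.1, 36.1, 34.9 and 38.8 CPM, so that control replicate 5 lay just above MAARS gapmeR replicate 13. The log2 fold change of 0.17 ± 0.064 (SE, interval 0.03 to 0.31) had an adjusted p of 0.046 in edgeR's quasi-likelihood test, and the exact permutation p was 0.0571. This call was lost without any 1 of 6 libraries, namely control replicates 6 and 7 and each of the MAARS gapmeR replicates, where the adjusted p reached 0.129. Vegfb (ENSMUSG00000024962) lies at chr19:6982473-6987651, minus strand.

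A ratio taken within a library does not depend on its scaling. Vegfa counts divided by Vegfb counts were 0.938, 1.09, 1.15 and 1.10 in the controls and 1.40, 1.30, 1.39 and 1.61 after knockdown, and these groups did not overlap. The mean log2 ratio was higher by 0.41, with an exact two-sided permutation p of 0.0286 that became 0.0571 after adjustment over the 2 ratios computed. Vegfa and Vegfb therefore differed unequally in these libraries, short of the threshold once adjusted.

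The 3 genes whose log2 CPM followed Vegfa most closely across the 8 libraries were Stim2, a calcium sensor of the endoplasmic reticulum, Snx24, a sorting nexin, and Mxi1, an antagonist of MYC. Pearson's r was 0.991, 0.986 and 0.984, as a description over libraries that share the group difference. Their own log2 fold changes were 0.28, 0.28 and 0.60.

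Receptors for VEGF split by type. The endothelial-type tyrosine kinase receptors Kdr (VEGFR-2) and Flt4 (VEGFR-3) fell, and the co-receptors Nrp1 and Nrp2, which macrophages express strongly, rose. Kdr was at 16.6, 15.2, 18.6 and 14.6 CPM in controls and at 5.68, 5.53, 5.33 and 5.85 CPM after knockdown, without overlap. Its log2 fold change was -1.54 ± 0.098 (SE, edgeR adjusted p 4.2e-06). Flt4 went from 4.55 ± 1.64 to 0.650 ± 0.314 CPM (SD, n = 4), a log2 fold change of -2.78 ± 0.38 (SE, edgeR adjusted p 1.4e-04). Flt1 (VEGFR-1) was near the limit of detection, at 0.991 and 0.388 CPM on average with overlapping groups, and its call (log2 fold change -1.29, edgeR adjusted p 0.0383) was lost in 6 of 15 alternative settings.

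Nrp1 was measured at 362, 389, 388 and 329.6 CPM in controls and at 463, 485, 444 and 393 CPM after knockdown, which did not overlap. The corresponding log2 fold changes were 0.28 ± 0.073 for Nrp1 and 0.23 ± 0.052 for Nrp2 (SE, edgeR adjusted p 0.00827 and 0.00421). Endothelial markers summed to 34.8 to 64.7 CPM in controls and 72.1 to 134.9 CPM after knockdown, and Vwf alone carried this difference, at 45.2 and 92.4 CPM on average (called higher). The other 2 tested markers, Cdh5 and Pecam1, had log2 fold changes of -0.69 and -0.19 and did not pass, and none of the 6 was at 0 in all libraries. Their part in these receptor values was not tested.

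Because VEGF-A transcription is driven by hypoxia-inducible factors, 12 hypoxia targets were read beside it, and 10 of them were tested. Of these, 3 rose, 2 fell and 5 did not pass, with a median log2 fold change of 0.17. Over all genes tested, 21.3% were called higher and 24% lower, with a median of 0.008. Egln1 (the oxygen-sensing prolyl hydroxylase), Pdk1 (which limits pyruvate entry into mitochondria) and Ndrg1 rose, by log2 fold changes of 0.36, 0.41 and 0.39. The Ndrg1 call was lost without MAARS gapmeR replicate 9 (0.34, edgeR adjusted p 0.0549), and targets called higher ran from 2 to 4 over the alternatives. Ldha (lactate dehydrogenase A) and P4ha1 (a collagen prolyl hydroxylase) fell by 0.53 and 0.28 on the log2 scale. Ldha was at 697 to 768 CPM in controls and 469 to 532 CPM after knockdown. Hif1a itself fell from 175 ± 11.1 to 144 ± 3.93 CPM (log2 fold change -0.28, edgeR adjusted p 9.96e-04), whereas its partner Arnt rose from 58.5 ± 4.14 to 73.1 ± 1.18 CPM (log2 fold change 0.32, edgeR adjusted p 6.0e-04). Epas1, which encodes HIF-2 alpha, was called higher, from 8.36 ± 1.06 to 11.4 ± 1.81 CPM with overlapping groups (log2 fold change 0.44, edgeR adjusted p 0.0176).

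Igf1, the second most abundant member, was at 636, 611, 569 and 525 CPM in control replicates 2, 5, 6 and 7 and at 780.0, 794, 808 and 698 CPM in MAARS gapmeR replicates 9, 11, 13 and 15. The lowest knockdown library stood above the highest control. Means of 585 ± 48.7 and 770.1 ± 49.6 CPM (SD, n = 4) gave a log2 fold change of 0.40 ± 0.068 (SE, interval 0.25 to 0.55), an increase of 31.6%. The adjusted p was 7.2e-04 in edgeR's quasi-likelihood test, and the exact permutation p was again 0.0286. Igf1 (ENSMUSG00000020053) spans chr10:87858265-87937042 on the plus strand.

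Of 7 tested receptor and binding genes of the IGF system, 3 rose (Igf1r, Insr and Igfbp4), 0 fell and 4 did not pass in edgeR's test. Among all genes tested, 21.3% were called higher and 24% lower. No set test was run on these 7, which are too few to set apart from that background. Igf1r, the signalling receptor, went from 5.43, 5.09, 5.90 and 7.76 CPM in controls to 14.2, 10.5, 11.4 and 15.5 CPM, a log2 fold change of 1.09 ± 0.16 (SE, edgeR adjusted p 2.4e-04). Igfbp4, a secreted protein that holds IGF-1 away from its receptor, had the largest change in the system, from 66.7, 72.3, 50.8 and 41.9 CPM to 250.3, 180.4, 185 and 236 CPM. Its log2 fold change was 1.88 ± 0.16 (SE, edgeR adjusted p 8.4e-06), with no overlap. Insr, the insulin receptor, rose from 33.7 ± 3.29 to 42.7 ± 2.01 CPM (log2 fold change 0.34, edgeR adjusted p 0.00239). Igf2r, the non-signalling receptor that clears IGF-2, was at 271 and 257 CPM on average (log2 fold change -0.08, edgeR adjusted p 0.327). Igfbp5, Igfbp7 and Pappa had log2 fold changes of 0.29, 0.45 and 0.46 without passing (edgeR adjusted p 0.451, 0.12 and 0.386). Higher RNA was thus measured both for the ligand and receptor and for a binding protein of opposing function.

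**Figure D3:**
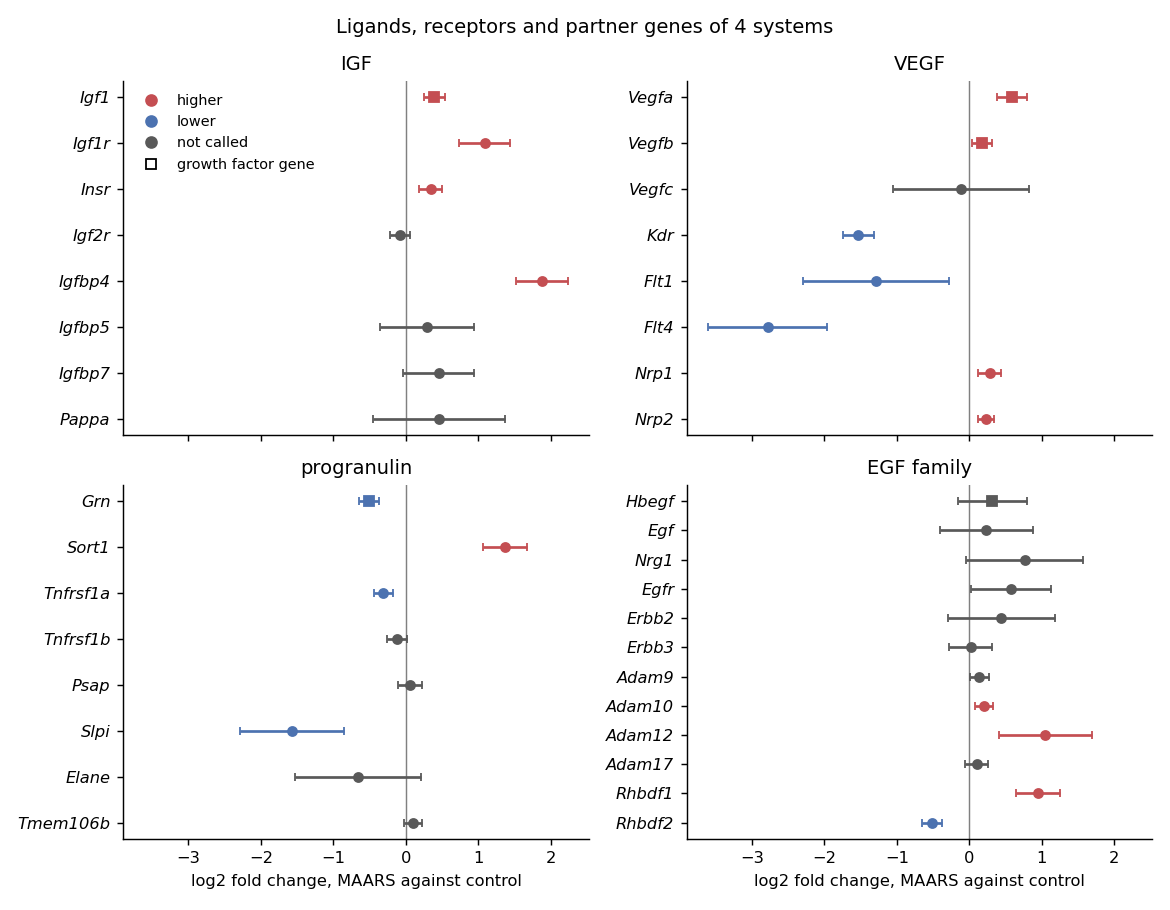
Log2 fold change (MAARS gapmeR minus control gapmeR) with 95% intervals from edgeR for every tested ligand, receptor and binding or processing gene of the IGF, VEGF, progranulin and EGF systems, 1 panel per system, coloured by call, with squares for the members. Igfbp4 and Igf1r lie to the right of 0 with Igf1, Kdr and Flt4 lie far to the left while Vegfa lies to the right, and Sort1 lies to the right while Grn lies to the left.

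Grn was the member with the smallest p, and it ranked 13 by CPM among all genes in the controls. It was measured at 4031, 4612, 4849 and 4565 CPM in control replicates 2, 5, 6 and 7 and at 3019, 3235, 3297 and 3156 CPM in MAARS gapmeR replicates 9, 11, 13 and 15. All knockdown libraries lay well below the lowest control. The mean fell from 4514 ± 345 to 3177 ± 119.9 CPM (SD, n = 4), a log2 fold change of -0.51 ± 0.064 (SE, interval -0.65 to -0.37) with an adjusted p of 9.0e-05 in edgeR's quasi-likelihood test and an exact permutation p of 0.0286. Grn alone made up 0.403 to 0.465% of all counts in controls and 0.306 to 0.336% after knockdown. It lies at chr11:102430315-102437048, plus strand (ENSMUSG00000034708), and 1.96% of its exon length overlaps Fam171a2.

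Sort1, which encodes sortilin, the receptor that takes up progranulin and delivers it to lysosomes, moved the other way. Control libraries held 104.7, 118.8, 82.8 and 67.5 CPM and knockdown libraries 266, 237, 235 and 229.7 CPM, well apart. The log2 fold change was 1.37 ± 0.14 (SE, edgeR adjusted p 2.1e-05). Psap, the precursor of saposins and a carrier for progranulin, was abundant and did not pass the test (log2 fold change 0.06). Slpi, an inhibitor that protects progranulin from elastase, was low throughout and fell from 1.35 to 0.447 CPM on average (log2 fold change -1.57, edgeR adjusted p 0.0025). Of the TNF receptors, to which progranulin has been reported to bind, Tnfrsf1a fell from 203 ± 17.96 to 164 ± 2.06 CPM (log2 fold change -0.31, edgeR adjusted p 0.00154), and Tnfrsf1b had a log2 fold change of -0.12 without passing.

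Gdf15 was also lower. Control replicates 2, 5, 6 and 7 held 70.3, 66.2, 60.6 and 63.0 CPM and MAARS gapmeR replicates 9, 11, 13 and 15 held 45.7, 48.4, 46.7 and 61.5 CPM. MAARS gapmeR replicate 15 lay within the control range, and the other 3 knockdown libraries lay below all controls. The log2 fold change was -0.36 ± 0.090 (SE, interval -0.56 to -0.17) with an adjusted p of 0.00678 in edgeR's quasi-likelihood test, and the exact permutation p was 0.0571. Without replicate 15 it was -0.47. The receptor Gfral had no count in any library, and its co-receptor Ret had 54 counts in all 8 libraries together. Gdf15 (ENSMUSG00000038508) lies at chr8:70629393-70632456, minus strand.

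The stress-response genes Ddit3 and Atf3, whose products have been placed in a pathway that induces Gdf15, were also called lower. A link between their levels and that of Gdf15 was not tested. Ddit3, which encodes the transcription factor CHOP, was at 124, 125, 135 and 137 CPM in controls and at 45.8, 69.3, 69.6 and 63.4 CPM after knockdown (log2 fold change -1.07 ± 0.11 SE, edgeR adjusted p 2.1e-05). Atf3 fell from 329.8 ± 14.3 to 219 ± 27.4 CPM (log2 fold change -0.59, edgeR adjusted p 1.3e-04). Of the Ddit3 exon length, 4.73% overlaps genes on the opposite strand. A further 6.13% overlaps another annotated entry on the same strand that is also named Ddit3 and has no row among the counts. Atf4, chosen after the values were seen since it lies upstream of both, had a log2 fold change of -0.11 and did not pass. Trib3, the other gene listed with these stress-response genes, also named after its value was seen, had -0.29 with overlapping groups and did not pass (edgeR adjusted p 0.0957).

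The PDGF chains showed no called difference. Pdgfa stood at 13.6, 11.9, 13.6 and 12.7 CPM in controls and at 13.3, 14.7, 15.8 and 18.2 CPM after knockdown, with 1 knockdown library inside the control range. Its log2 fold change was 0.26 ± 0.100 (SE, interval 0.04 to 0.48) with an adjusted p of 0.0555 in edgeR's quasi-likelihood test. It passed with upper-quartile scaling (0.32, adjusted p 0.0234) and without MAARS gapmeR replicate 9 (0.32, adjusted p 0.0233). Of its exon length, 26.1% overlaps 6330403L08Rik on the opposite strand. Whether counting used the strand is not given in the sources used here, so reads of the 2 genes may be mixed.

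Pdgfb was at 84.5, 94.9, 100.4 and 93.8 CPM in controls and 87.3, 82.3, 95.2 and 90.8 CPM after knockdown, in overlapping ranges. The 95% interval of its log2 fold change was -0.21 to 0.06. The ratio of Pdgfa to Pdgfb counts was 0.126 to 0.161 in controls and 0.152 to 0.200 after knockdown, overlapping, with an exact permutation p of 0.0571 before and after adjustment. Pdgfa (ENSMUSG00000025856) lies at chr5:138976014-138997370 and Pdgfb (ENSMUSG00000000489) at chr15:79995874-80014977, both on the minus strand. Their receptors Pdgfra and Pdgfrb, which mesenchymal cells express, had averages of 2.00 and 3.38 CPM in controls and of 2.32 and 4.95 CPM after knockdown, and neither was called (log2 fold change 0.21 and 0.55, edgeR adjusted p 0.582 and 0.0672). Pdgfrb passed in 5 of 15 alternative settings, among them DESeq2 (adjusted p 0.046), upper-quartile factors (0.0463), no filter on low counts (0.0266), and edgeR without control replicate 7 (0.0396) or MAARS gapmeR replicate 9 (0.023). Stromal marker genes summed to 551 to 1240.2 CPM in controls and 871 to 1516 CPM after knockdown, with 1 of 6 tested markers called (Acta2, higher) and none at 0, and the highest value of each receptor within each group fell in the library with the highest stromal sum. The part of such cells in these values was not tested.

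Hbegf (ENSMUSG00000024486) was the least expressed member, with raw counts of 46, 34, 33 and 49 in controls and of 38, 78, 69 and 52 after knockdown. At 2.36, 1.73, 1.78 and 2.41 CPM against 1.80, 3.10, 3.17 and 2.25 CPM the groups overlapped. The interval of its log2 fold change, -0.16 to 0.80, was the widest of the 9 members. Egfr and Erbb2, receptors of the family, had log2 fold changes of 0.58 and 0.44 without passing, Erbb3 had 0.02, and Erbb4 had no count. The 2 inactive rhomboids that govern shedding of EGF ligands by ADAM17 moved apart. Rhbdf1 rose from 2.98 ± 0.515 to 5.75 ± 0.235 CPM (log2 fold change 0.95, edgeR adjusted p 2.2e-04), and Rhbdf2, the form that predominates in myeloid cells, fell from 72.6 ± 6.62 to 50.7 ± 1.94 CPM (log2 fold change -0.52, edgeR adjusted p 8.8e-05).

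Osm was at 13.1, 12.3, 10.98 and 11.6 CPM in controls and at 11.4, 10.8, 10.8 and 11.4 CPM after knockdown. The ranges overlapped, and the log2 fold change of -0.11 ± 0.081 (SE, interval -0.29 to 0.07) did not pass. Osm (ENSMUSG00000058755) lies at chr11:4236420-4241026, plus strand. Of its receptor subunits, Lifr rose from 4.95 ± 0.646 to 8.08 ± 0.894 CPM (log2 fold change 0.71, edgeR adjusted p 9.4e-04). The shared subunit Il6st had a log2 fold change of -0.20 (edgeR adjusted p 0.042), with overlapping groups and a call lost in 6 of 15 alternative settings. Osmr, at 2.39 to 4.47 CPM in controls and 3.16 to 5.79 CPM after knockdown, was not called. As for the PDGF receptors, its highest value in each group fell in the library with the highest stromal sum. The part of stromal cells in the Osmr values was not tested.

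**Figure D4:**
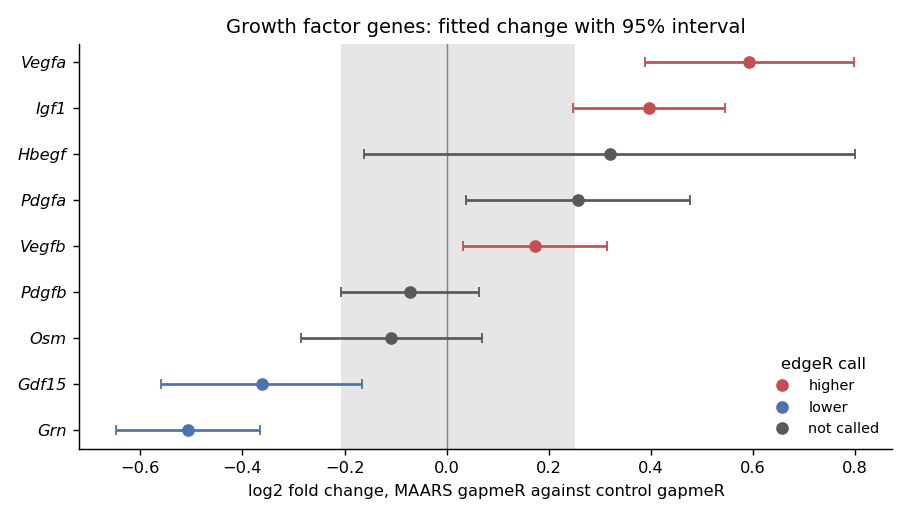
Log2 fold change (MAARS gapmeR minus control gapmeR) of the 9 members with 95% intervals from edgeR (n = 4 per group), coloured by call, over a grey band from the lower to the upper quartile of all 13051 genes (-0.21 to 0.25). The points of Vegfa and Igf1 lie above the band and those of Gdf15 and Grn below it, while Vegfb, though called, lies inside it. Hbegf and Pdgfa, which were not called, also lie above the band.

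AU-rich elements in the 3′ untranslated region (UTR) are bound by proteins that stabilise RNA, such as HuR (Elavl1), or destabilise it, such as tristetraprolin (Zfp36), and many growth factor RNAs carry them. Over the 11692 tested genes with an annotated 3′ UTR, the median count of the ATTTA pentamer was 2, and 30.5% held the longer TATTTAT. Vegfa held 9 pentamers, 3 of the 7-base form and 1 full TTATTTATT, which 8.23% of genes held. Gdf15 held 5 pentamers within only 153 bases, 32.7 per kb against a median of 1.33. Igf1 held 18 pentamers in its 6311 bases but no TATTTAT, and Osm held 6 pentamers with 3 of the longer form. Vegfb, Pdgfa and Grn held none at all. Elements thus occurred in members that rose, fell or did not pass. Below, only the full TTATTTATT is printed for Vegfa, without its other TATTTAT matches, whereas every TATTTAT is printed for Gdf15. The sites of Vegfa and Gdf15, called in opposite directions, are shown with 8 flanking bases and the element in capitals, from GENCODE M21 on GRCm38, at chr17:46017168-46017192 for Vegfa and at chr8:70629485-70629507, chr8:70629473-70629495 and chr8:70629421-70629443 for Gdf15, all on the minus strand.
Vegfa site: gttatcatTTATTTATTggtgctac
Gdf15 site 1: aaggatgcTATTTATatttgtat
Gdf15 site 2: tatatttgTATTTATtaatatta
Gdf15 site 3: ggattgtgTATTTATttaaaact

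Among the proteins that bind such elements, Elavl1 was at 46.9 and 48.0 CPM on average (log2 fold change 0.03, edgeR adjusted p 0.614), while Khsrp, a destabilising factor, rose from 83.9 ± 3.33 to 103 ± 1.54 CPM (log2 fold change 0.30, edgeR adjusted p 2.0e-04). Zfp36 fell by 0.38 on the log2 scale (edgeR adjusted p 0.00154). Zfp36l1 had a log2 fold change of 0.36 (edgeR adjusted p 0.0104), with 55.9% of its exon length overlapped on the opposite strand. Hnrnpd was called lower (log2 fold change -0.14, edgeR adjusted p 0.0398) with overlapping groups. Zfp36l2 had a log2 fold change of 0.14 and did not pass (edgeR adjusted p 0.0981). Elavl1, Zfp36, Hnrnpd and Zfp36l2 were named after their values were seen, for their known binding. Over the 15 genes listed as regulators, 5 rose, 5 fell and 5 did not pass, with a median log2 fold change of -0.11. The shares over all genes tested were 21.3% higher and 24% lower, with a median of 0.008.

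Counts over the remaining lists were mixed in the same way. They stand beside 21.3% of all genes tested called higher and 24% lower, with a median log2 fold change of 0.008. Of 22 listed receptors, 19 were tested, 6 rose, 5 fell and 8 did not pass (median 0.23). The 5 that fell became 3 when any 1 of control replicates 2, 5 and 6 or of MAARS gapmeR replicates 9 and 15 was left out. Of 25 binding and processing genes, 18 were tested, 6 rose, 3 fell and 9 did not pass (median 0.17). Plat, which encodes the tissue plasminogen activator, rose at a low level, from 0.947 to 1.91 CPM on average (log2 fold change 1.01, edgeR adjusted p 0.0126), and Pcsk7, a proprotein convertase, fell by 0.36 (edgeR adjusted p 4.6e-04), with 10.1% of its exon length overlapped on the opposite strand. Of 18 sister ligands, 12 did not pass the filter on low counts. Of the 6 tested, 1 rose, Clcf1, at 0.410 to 0.933 CPM in controls and 0.851 to 1.21 CPM after knockdown (log2 fold change 0.84, edgeR adjusted p 0.0376), and its call was lost in 8 of 15 alternative settings. None was called lower by edgeR, where 1 (Pdgfc) had an unadjusted p under 0.05 and DESeq2 called 1. The other marker lists summed to 100.5 to 297 CPM in controls and 105 to 168 CPM after knockdown for neutrophil and precursor genes, and to 236 to 313 and 502 to 602 CPM for mast cell and megakaryocyte genes, of which Mcpt4 was at 0. Pf4 alone carried the latter difference, from 267 to 534 CPM on average (called higher), while Kit and Itga2b had log2 fold changes of -0.70 and -0.03 and did not pass. Dendritic cell and lymphocyte genes summed to under 3 CPM in every library.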

How the data were processed

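Ribosome-depleted RNA of the 8 libraries was read in 100-base pairs. The deposited counts are raw whole-number read counts per Ensembl gene. Per the labels and the submitters' processing notes, reads were trimmed with Trimmomatic 0.36, aligned with STAR 2.5.2b to mm10 and counted with featureCounts of Subread 1.5.2 against Ensembl 79, and strand and multimapping settings are not given in the sources used here. Of 49315 gene IDs, 49056 (99.5%) were named and placed through GENCODE M21 on GRCm38, the same build. Counts were fitted with edgeR 4.0.16 (R 4.3.3; filterByExpr with a minimum count of 10, TMM, quasi-likelihood test, Benjamini-Hochberg over 13051 genes). A gene was called at an adjusted p under 0.05. The coefficient of variation between replicates was 8.51%. On simulated counts for this comparison (12942 genes, 200 changed), 95.9% of changed genes were called. In the measured libraries, 2782 genes were called higher and 3137 lower. The rate of calls for shifts as small as those of Vegfb and Pdgfa was not tested.

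Alternatives were RLE and upper-quartile factors, DESeq2 1.42.0 (the study's tool), limma-voom 3.58.1, a robust prior, other count filters and leaving out each library. Exact two-sided permutation tests used log2 CPM. All members, MAARS and every receptor were named, with the 3 smallest p per direction of each related list, the marker sums and the 3 genes most like Vegfa. Lyz2, Cd68, Fcgr1, Vwf, Cdh5, Pecam1, Acta2, Pf4, Kit, Itga2b, Igfbp5, Igfbp7, Pappa, Epas1, Psap, Pdgfc, Atf4, Trib3, Elavl1, Zfp36, Hnrnpd and Zfp36l2 were named after their values were seen. The members and lists were chosen with earlier results of these data known. Sequences came from RefSeq promoter windows (GRCm38.p6) and GENCODE M21 transcripts, the 3′ UTR being the longest of a gene's coding transcripts, read from the stop codon. No protein sequence was used here.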

Additional observations from a re-analysis of the deposited data

Results flagged for a closer look

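In each group of 4 libraries, a library was marked where its gap to the nearest other library as a share of the group's range exceeded Dixon's 95% critical value. Of 94 groups checked, 2 for each of 47 named genes, 3 were marked, and chance alone marks about 1 in 20. Gdf15 in MAARS gapmeR replicate 15 was at 61.5 CPM (61.46), where the other knockdown libraries were at 45.7 to 48.4 CPM. Tnfrsf1a in MAARS gapmeR replicate 13 was at 166.9 CPM, against 162.5 to 163.2 CPM in the others of its group. Nrp2 in control replicate 6 was at 419.6 CPM, against 371.0 to 376.2 CPM in the other controls.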

How the results depend on the processing

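The calls of Igf1, Vegfa, Gdf15, Grn and MAARS kept their direction and passed the threshold under all 15 alternatives. With 1 library left out at a time, log2 fold changes ran from 0.35 to 0.44 for Igf1, 0.49 to 0.64 for Vegfa, -0.47 to -0.32 for Gdf15 and -0.55 to -0.48 for Grn. Vegfb lost its call without the filter on low counts (0.17, adjusted p 0.0951) and ran from 0.13 to 0.21 without 1 library. Pdgfa passed with upper-quartile factors (0.32) and ran from 0.17 to 0.32 without 1 library. Of sister ligands, DESeq2 called 0 higher and 1 lower, and edgeR without the filter called 0 higher and 2 lower. With 1 library left out, 0 to 3 were higher and 0 to 1 lower. Receptors called lower ran from 3 to 5. Values that were not called changed sign for Erbb3 with limma-voom (-0.0035) and without 1 library (-0.073 to 0.127), and for Pdgfra (-0.0166 without MAARS gapmeR replicate 13, up to 0.403 without another). The causes were not tested. Hbegf rested on 33 to 78 counts per library. No paired analysis was possible because the groups share no replicate number.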
